A study of Mus musculus with 32 samples.

Results

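Flt3, Kit and Csf1r encode class III receptor tyrosine kinases, and their messenger RNAs were followed through RNA sequencing of bone marrow cells from C57BL/6 mice that carry a FLT3-ITD transgene. The members were chosen by name, 3 of the 56246 gene rows of the count table. The 8 groups, of 4 libraries each, were LSK cells of mice given the combination of Lys05 and AC220, AC220, Lys05 or vehicle, and granulocyte-macrophage progenitors (GMP) of mice given the same 4 treatments. LSK cells are lineage-negative marrow cells that carry Sca-1 and Kit, the gate that holds stem and early progenitor cells. Lys05 is a lysosomal inhibitor of autophagy, and AC220 (quizartinib) is an inhibitor of the FLT3 kinase that also binds KIT, CSF1R and the PDGF receptors. Every group, vehicle included, carries the FLT3-ITD transgene, so no wild-type cells enter any comparison. The promoter of the transgene, the dose, the length of treatment and the age of the mice are not given in the sources used here, nor is whether reads of the FLT3-ITD transcript are counted under Flt3. The labels call the 4 libraries of a group biological replicates without naming the animals, so p-values measure the spread between these libraries.

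In GENCODE M21 on GRCm38, Flt3 (ENSMUSG00000042817) lies on chromosome 5 from 147330741 to 147400489 on the minus strand, with a longest transcript of 3951 bases. Kit (ENSMUSG00000005672) lies on the same chromosome from 75574916 to 75656722 on the plus strand, with a longest transcript of 5241 bases. Csf1r (ENSMUSG00000024621) lies on chromosome 18 from 61100598 to 61132149 on the plus strand, with a longest transcript of 4701 bases. Csf1r shares 873 bases of exon with Hmgxb3 on the opposite strand, and since the strand setting of the counting is not given, reads from that stretch cannot be told apart. No exon of Flt3 or Kit overlaps another gene.

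Class III receptors have immunoglobulin-like domains outside the cell and a split kinase domain inside it. Binding of a ligand pairs the receptors, which then phosphorylate each other and recruit adaptors, lipid kinases and STAT factors. FLT3 with its ligand acts in early multipotent and lymphoid-primed progenitors and in dendritic cell precursors, KIT with stem cell factor in stem cells, progenitors and mast cells, and CSF1R with CSF1 or IL34 in monocytes and macrophages. An internal tandem duplication (ITD) in the juxtamembrane part of FLT3, as found in acute myeloid leukemia, makes the kinase active without ligand.

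The start regions of Flt3 and Kit are shown because both genes changed together in LSK cells, while Flt3 and not Kit was called between LSK cells and GMP. The sequences are from RefSeq (GRCm38.p6), 250 bases before to 50 after the start, 5′ to 3′ on the gene's own strand, and capitals mark a match to CACGTG (an E-box) or GGGCGG (a GC box).
Flt3, chr5:147400440-147400739, minus strand: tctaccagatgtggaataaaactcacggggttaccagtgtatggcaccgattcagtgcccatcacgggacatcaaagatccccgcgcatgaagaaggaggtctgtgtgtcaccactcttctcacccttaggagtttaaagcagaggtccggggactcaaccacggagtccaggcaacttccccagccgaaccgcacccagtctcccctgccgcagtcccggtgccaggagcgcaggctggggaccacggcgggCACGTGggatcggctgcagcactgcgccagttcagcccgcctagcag
Kit, chr5:75574737-75575036, plus strand: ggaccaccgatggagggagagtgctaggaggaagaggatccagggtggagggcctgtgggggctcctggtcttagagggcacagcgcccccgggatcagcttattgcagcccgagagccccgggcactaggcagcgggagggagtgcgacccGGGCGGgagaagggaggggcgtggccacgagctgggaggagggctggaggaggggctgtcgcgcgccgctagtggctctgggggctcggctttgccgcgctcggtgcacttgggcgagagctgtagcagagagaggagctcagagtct
Flt3 held 1 CACGTG, 3 bases after the start, a motif found on either strand in 7.15% of 32851 mouse promoters of this length. Kit held none of these and 1 GGGCGG, 98 bases before the start (offset -98), a motif found in 35.7% of the promoters. Neither window held the spaced STAT motif TTCNNNGAA, which 8.30% of promoters hold on one strand or the other. Also without a match on either strand was the RUNX motif, searched as TGTGGT and held by 16.8% of promoters. The same was true of a GATA motif, searched as GATAA and held by 25.4% of promoters. The ETS core GGAA was in both windows, as in 96.0% of promoters, and is not capitalised. None of the capitalised matches overlaps a match to another motif searched.

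Libraries held 35.7 to 55.9 M gene counts. Flt3 had 69 to 2019 counts in GMP libraries and 2890 to 34017 in LSK libraries. The gates were visible in the data. Ly6a, the gene of Sca-1, averaged 97.2 to 152.7 CPM (each gene's count scaled to a common library size) over the LSK groups and 1.18 to 12.3 CPM over the GMP groups, and Fcgr3, a receptor gene of the GMP gate, 8.02 to 30.3 CPM in LSK and 246 to 416 CPM in GMP. LSK libraries differed in transcript length: transcripts under 1000 bases took 7.89% to 10.6% of gene counts under the combination and 7.43% to 8.37% under AC220, against 17.3% to 20.2% under Lys05 and 19.0% to 20.7% under vehicle. The share was 15.4% to 23.1% in GMP libraries. Of the GMP libraries, 3 stood apart from the rest of their group in log2 CPM, namely combination library 3, Lys05 library 1 and vehicle library 1, with median correlations to their group of 0.68, 0.86 and 0.81, and values without them are given where a GMP result rests on them.

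**Figure D1:**
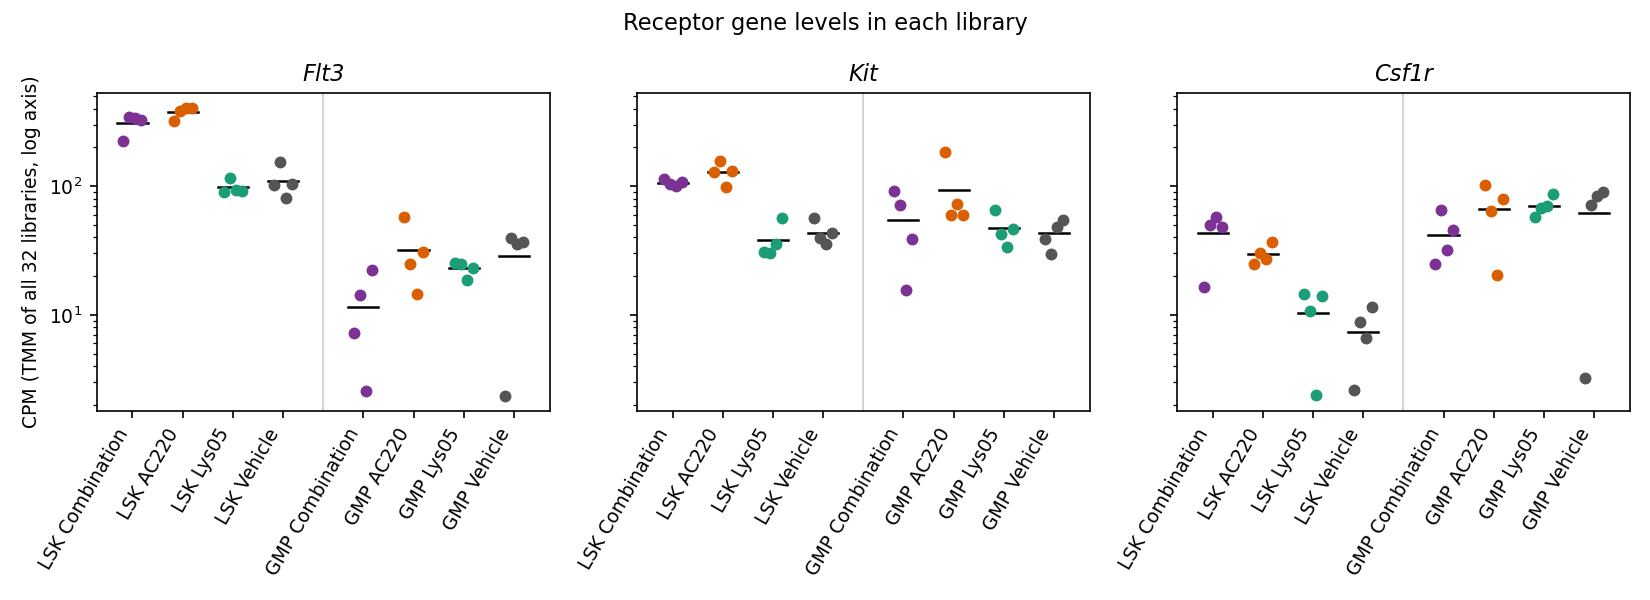
Level of each receptor gene in every library, in CPM scaled over all 32 libraries by the trimmed mean of M-values (log axis), with LSK groups left and GMP groups right in each panel; points are libraries and bars are group means (n = 4). Flt3 in LSK cells under the combination or AC220 lies above every other group, Kit groups of both cell types overlap, and Csf1r is lowest in LSK cells under Lys05 and vehicle.

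Flt3 messenger RNA rose in LSK cells under AC220 and under the combination. Flt3 stood at 377, 450, 474 and 471 CPM in the AC220 libraries, against 123, 186, 96.5 and 124 CPM in the vehicle libraries (CPM scaled over the 16 LSK libraries). Under the combination it stood at 264, 405, 399 and 386 CPM. Every library with AC220 in the treatment was above every vehicle library, and the lowest AC220 library was 2.03-fold above the highest vehicle library. The log2 fold change against vehicle was 1.74 ± 0.18 for AC220 (standard error of the edgeR fit, n = 4 each, adjusted p = 6.26e-07) and 1.46 ± 0.18 for the combination (adjusted p = 5.13e-06). In bulk RNA, a change in how many cells of a type were in the sort and a change in RNA per cell cannot be told apart. The same comparisons called 54.9% of 15730 genes for AC220 (29.4% higher, 25.5% lower) and 51.8% for the combination (28.3% higher, 23.6% lower), so a call in itself did not set Flt3 apart.

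Kit rose beside it. The AC220 libraries held 151, 182, 115 and 154 CPM and the combination libraries 135, 122, 117 and 127 CPM, against 68.7, 47.3, 42.5 and 51.6 CPM in the vehicle libraries. No library with AC220 in the treatment overlapped the vehicle range. The log2 fold change was 1.52 ± 0.21 for AC220 (adjusted p = 9.52e-06) and 1.25 ± 0.20 for the combination (adjusted p = 7.43e-05).

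Csf1r, a gene at low level in LSK cells, rose too and varied most between libraries. It stood at 29.4, 35.0, 31.6 and 42.8 CPM under AC220, against 3.15, 10.6, 8.01 and 13.9 CPM under vehicle. The combination libraries held 19.5, 58.1, 67.0 and 56.7 CPM, with library 1 far below the other 3 and still above every vehicle library. The log2 fold change was 1.96 ± 0.51 for AC220 (adjusted p = 0.00358) and 2.50 ± 0.52 for the combination (adjusted p = 0.000686). All 3 members thus passed the test upward in both comparisons.

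The size of these changes depended on how transcript length was treated. The members' transcripts are long, and among the 5867 genes with transcripts of 3000 to 6000 bases the median log2 fold change of AC220 against vehicle was 0.70, with 2543 higher and 866 lower, against a median of 0.09 over all genes. With an offset fitted per library on transcript length and GC content, Flt3 stood at 0.82 (adjusted p = 0.000346) and Kit at 0.80 (adjusted p = 0.00115) for AC220, both still called, while Csf1r at 0.71 was not (adjusted p = 0.25). For the combination the offset gave 0.62 for Flt3 (adjusted p = 0.00338), 0.66 for Kit (adjusted p = 0.00522) and 1.42 for Csf1r (adjusted p = 0.0264), all called. With the offset, 23.5% of genes were called higher and 21.4% lower under AC220. Scaling factors taken from genes of 2000 to 6000 bases alone moved the median of all genes under AC220 to -0.22 and the share of calls that were higher to 42.9%, against 53.6% in the fit above; on that scale the AC220 values were 1.43 for Flt3, 1.21 for Kit and 1.64 for Csf1r, all called. Whether the shift in length composition arises in the cells or in library preparation was not tested.

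**Figure D2:**
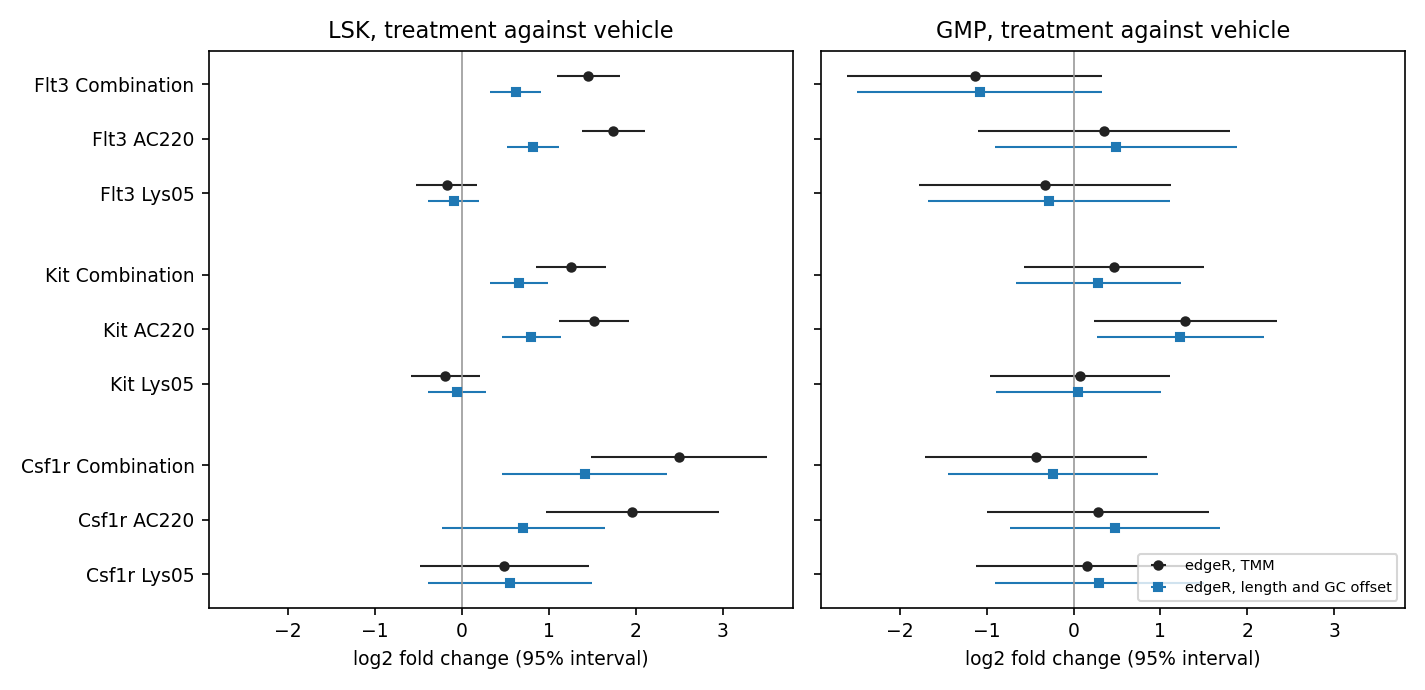
Log2 fold change of each receptor gene for the combination, AC220 and Lys05 against vehicle in LSK cells (left) and GMP (right); points are edgeR estimates and lines are 95% intervals (1.96 standard errors), black for the main fit and blue for the fit with the length and GC offset. In LSK cells the intervals for AC220 and the combination lie above 0 in both fits except Csf1r under AC220 with the offset, whereas the GMP intervals span 0 except Kit under AC220 in both fits.

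Lys05 alone called no member in LSK cells. Flt3 stood at 109, 139, 111 and 110 CPM under Lys05, within the vehicle range, with a log2 fold change of -0.18 (95% interval -0.53 to 0.18, adjusted p = 0.649). Kit stood at 37.2, 35.9, 42.8 and 67.9 CPM under Lys05, overlapping vehicle, at -0.19 (interval -0.59 to 0.20, adjusted p = 0.657). Csf1r stood at 17.5, 12.9, 2.86 and 16.9 CPM under Lys05, also overlapping vehicle, at 0.49 (interval -0.48 to 1.46, adjusted p = 0.644). This edgeR comparison called 0% of genes (2718 genes had an unadjusted p under 0.05), DESeq2 called 607 genes and limma with quality weights 0.

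No member was called in LSK cells between the combination and AC220 alone. The combination against AC220 gave -0.29 for Flt3 (interval -0.64 to 0.07, adjusted p = 0.784), -0.26 for Kit (interval -0.66 to 0.13, adjusted p = 0.890) and 0.54 for Csf1r (interval -0.42 to 1.49, adjusted p = 0.964), in a comparison that called 0.356% of genes. The estimates for Flt3 and Kit lay below AC220 alone and that for Csf1r above it, all with intervals that span 0. Limma with quality weights called none of them either (adjusted p = 0.0812 for Flt3, 0.0863 for Kit and 0.0867 for Csf1r). Against Lys05 alone, the combination was higher by 1.63 for Flt3 (adjusted p = 1.45e-06), 1.45 for Kit (adjusted p = 1.73e-05) and 2.01 for Csf1r (adjusted p = 0.0033), where 49.5% of genes were called. With the offset Csf1r lost this call at 0.86 (adjusted p = 0.172). The interaction of the drugs was -0.11 for Flt3 (interval -0.61 to 0.39), -0.07 for Kit (interval -0.63 to 0.49) and 0.05 for Csf1r (interval -1.31 to 1.41), with 0% of genes called by edgeR, 1645 genes at an unadjusted p under 0.05, 98 genes called by DESeq2 and 0 by limma with quality weights. The effect of AC220 pooled over both backgrounds, from the same libraries, was 1.69 ± 0.13 for Flt3, 1.48 ± 0.15 for Kit and 1.98 ± 0.36 for Csf1r, in a contrast that called 63.4% of genes. With the offset the pooled values were 0.76 for Flt3 and 0.75 for Kit, both called, and 0.78 for Csf1r, which lost its call (adjusted p = 0.0612).

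No difference in the proportion of Flt3 to Kit was called within LSK libraries. Their log2 count ratio, which needs no scaling, was 1.52 ± 0.37 under the combination, 1.57 ± 0.34 under AC220 and 1.39 ± 0.53 under Lys05, against 1.32 ± 0.47 under vehicle (SD, n = 4 each). The difference from vehicle was 0.20 for the combination (exact two-sided permutation p = 0.514), 0.25 for AC220 (exact p = 0.343) and 0.08 for Lys05 (exact p = 0.80), each with a p of 0.96 after Benjamini-Hochberg adjustment over 6 comparisons. The smallest p that 4 against 4 allows is 0.0286. In GMP the ratio was -2.36 ± 1.19 under the combination, -1.55 ± 0.59 under AC220 and -0.998 ± 0.27 under Lys05, against -1.17 ± 1.98 under vehicle, where exact p-values were 0.371, 0.771 and 1.0 in that order. The spread of GMP vehicle came from library 1, at -4.07 against -0.56 to 0.40 in the other 3. Without the 3 GMP libraries that stand apart, the vehicle ratio averaged -0.21 ± 0.52 (SD, n = 3), and the difference from vehicle was -2.07 for the combination, -1.35 for AC220 and -0.67 for Lys05, where the sign turned. No treated library then overlapped the vehicle range, and the exact p-values of 0.10, 0.0571 and 0.10 are the smallest that 3 or 4 libraries against 3 allow (each 0.10 after adjustment over these 3 comparisons). These libraries were left out after the data were seen, and vehicle library 1 among them has the lowest ratio of all GMP libraries, so no conclusion is drawn from this separation.

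**Figure D3:**
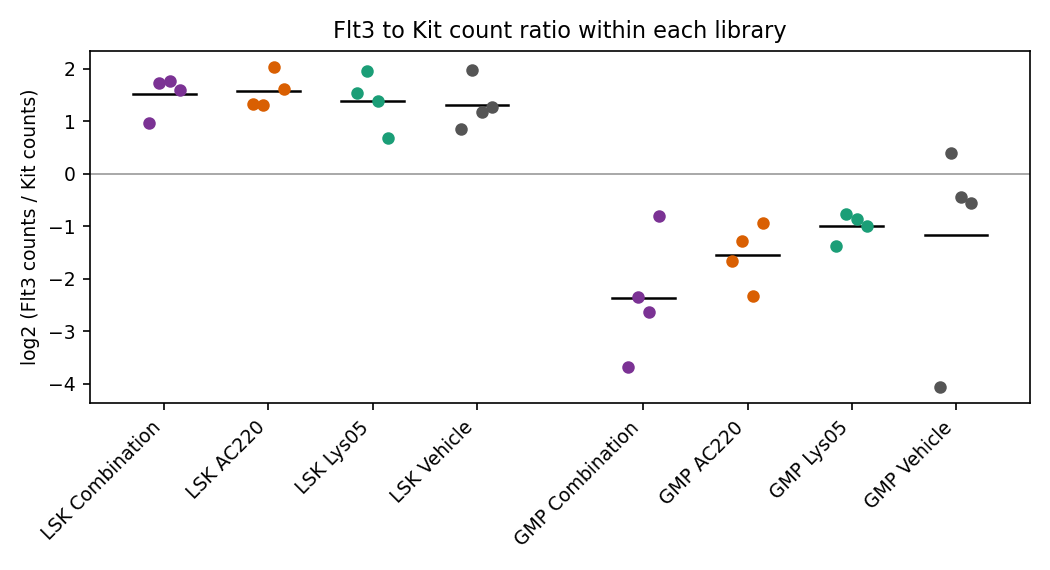
Log2 ratio of Flt3 counts to Kit counts within each library (y axis) by group (x axis); points are libraries and bars are group means (n = 4). All LSK libraries lie between 0.69 and 2.04, and all GMP libraries except 1 vehicle library lie below 0.

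In GMP no member passed the test in any comparison of treatments, and these libraries varied far more: the common biological coefficient of variation was 1.06 in GMP and 0.47 in LSK. Flt3 stood at 53.0, 21.9, 14.1 and 26.6 CPM under AC220, against 2.18, 32.2, 27.5 and 28.5 CPM under vehicle (scaled over the 16 GMP libraries), at a log2 fold change of 0.35 (interval -1.10 to 1.80, adjusted p = 0.946). Under the combination it stood at 6.64, 12.1, 1.999 and 20.4 CPM, at -1.14 against vehicle (interval -2.60 to 0.33, adjusted p = 0.607), and under Lys05 at 21.6, 19.5, 13.8 and 17.3 CPM, at -0.32 (interval -1.77 to 1.12). All 4 combination libraries lay under 3 of the 4 vehicle libraries and 3 of them above vehicle library 1. Without the 3 GMP libraries that stand apart, Flt3 was at -1.25 for the combination (adjusted p = 0.324) and at -0.16 for AC220, where the sign turned.

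Kit in GMP was highest under AC220. The libraries held 168, 53.1, 70.6 and 51.3 CPM under AC220, against 36.6, 24.5, 37.6 and 42.2 CPM under vehicle, and the ranges did not overlap, but the log2 fold change of 1.29 ± 0.54 did not pass over all genes (adjusted p = 0.452; 1.16 and adjusted p = 0.318 without the 3 libraries). Kit stood at 85.4, 61.1, 12.3 and 35.5 CPM under the combination (0.46, interval -0.58 to 1.5) and at 55.9, 33.2, 25.1 and 34.4 CPM under Lys05 (0.08, interval -0.96 to 1.12). Csf1r stood at 93.5, 57.2, 19.95 and 68.1 CPM under AC220 (0.28, interval -0.995 to 1.56), at 23.1, 55.9, 24.9 and 42.1 CPM under the combination (-0.43, interval -1.71 to 0.85) and at 48.9, 52.4, 52.5 and 65.0 CPM under Lys05 (0.15, interval -1.12 to 1.43), against 3.04, 58.3, 64.9 and 70.2 CPM under vehicle. Vehicle library 1 was the lowest of all 16 GMP libraries for Csf1r, and without the 3 libraries Csf1r was at -0.24 for AC220 and -0.15 for Lys05, both with the sign turned. edgeR called 0% of 14572 genes against vehicle for AC220, the combination and Lys05, with 1386, 1601 and 159 genes at an unadjusted p under 0.05; DESeq2 called 282, 371 and 2, and limma with quality weights 250, 2 and 756, in the same order. The combination against AC220 in GMP gave -1.49 for Flt3 (interval -2.97 to -0.01, adjusted p = 0.390), -0.82 for Kit (adjusted p = 0.509) and -0.71 for Csf1r (adjusted p = 0.664). The Flt3 interval left out 0 only narrowly, and its unadjusted edgeR p was 0.0646. In this comparison 0.00686% of genes (1 gene) were called by edgeR, 818 genes by DESeq2 and 0 by limma. The combination against Lys05 gave -0.81, 0.39 and -0.58 for Flt3, Kit and Csf1r, and the interaction -1.17, -0.90 and -0.86, with 0% of genes called in each; 1786 and 1287 genes had an unadjusted p under 0.05, DESeq2 called 450 and 240, and limma with quality weights 512 and 1. The pooled AC220 effect was 0.84 ± 0.38 for Kit (adjusted p = 0.311), -0.23 for Flt3 and -0.15 for Csf1r, where 0.0549% of genes were called. In that contrast edgeR called 8 genes, against 142 with the offset, 684 by DESeq2, 1179 by limma with quality weights and 633 without the 3 libraries.

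Levels between the members can be compared per length. In RPKM, which divides CPM (scaled over all 32 libraries) by the kilobases of the longest transcript, vehicle LSK cells held Flt3 at 27.8 ± 7.91, Kit at 8.32 ± 1.78 and Csf1r at 1.58 ± 0.80 (SD, n = 4). Vehicle GMP held Csf1r at 13.2 ± 8.53, Kit at 8.19 ± 2.05 and Flt3 at 7.21 ± 4.43. Without vehicle library 1, which stands apart, Flt3 was above Kit, at 9.41 ± 0.49 against 8.44 ± 2.44, and Csf1r stood at 17.4 ± 2.08 (n = 3). The RPKM of Flt3 was 3.88 ± 0.89 times that of Kit in LSK cells under the combination, 4.03 ± 1.02 under AC220, 3.65 ± 1.24 under Lys05 and 3.45 ± 1.22 under vehicle. In GMP the same ratio was 0.34 ± 0.29 under the combination, 0.48 ± 0.18 under AC220, 0.67 ± 0.12 under Lys05 and 0.92 ± 0.68 under vehicle, or 1.205 ± 0.47 under vehicle without library 1. Flt3 was thus the highest of the 3 in every LSK group and Csf1r or Kit in every GMP group.

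Across the 8 groups, in CPM scaled over all 32 libraries, Flt3 ran from LSK under AC220 (379 ± 40.4) and the combination (309.5 ± 58.5), whose ranges overlap, to LSK under vehicle (110.0 ± 31.3) and Lys05 (97.9 ± 12.6), which overlap each other and lie apart from the pair above. The GMP groups followed, all apart from LSK and all overlapping their neighbours: AC220 at 31.9 ± 18.4, vehicle at 28.5 ± 17.5, Lys05 at 23.0 ± 3.04 and the combination at 11.5 ± 8.55. The place of GMP vehicle below GMP AC220 rested on vehicle library 1, without which it averaged 37.2 ± 1.93 (n = 3), the highest GMP group. Kit was ordered as LSK under AC220 (128.6 ± 23.7), LSK under the combination (106.6 ± 5.74), GMP under AC220 (93.8 ± 59.8), GMP under the combination (54.7 ± 34.2), GMP under Lys05 (47.0 ± 13.3), LSK under vehicle (43.6 ± 9.32), GMP under vehicle (42.9 ± 10.7) and LSK under Lys05 (38.3 ± 12.3), and no neighbours were apart. Csf1r was highest in GMP under Lys05 (70.6 ± 12.5), AC220 (66.4 ± 34.2) and vehicle (62.2 ± 40.1), followed by LSK under the combination (42.9 ± 18.1), GMP under the combination (42.0 ± 17.995) and LSK under AC220 (29.7 ± 5.19), each overlapping the next. Without the libraries that stand apart, GMP vehicle came first at 81.8 ± 9.79 and GMP Lys05 next at 75.1 ± 10.8 (n = 3 each). The lowest means were those of LSK under Lys05 (10.4 ± 5.62) and vehicle (7.42 ± 3.78), which overlap each other and lie apart from LSK under AC220. Of the groups above, only GMP vehicle reached into their ranges, through its library 1 at 3.24 CPM.

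Flt3 was higher in LSK cells than in GMP under every treatment. The log2 difference was 4.75 ± 0.61 under the combination (adjusted p = 5.70e-07), 3.57 ± 0.57 under AC220 (adjusted p = 1.76e-05), 2.09 ± 0.54 under Lys05 (adjusted p = 0.0221) and 1.95 ± 0.54 under vehicle (adjusted p = 0.0310). With the offset the differences were 3.68, 2.40, 2.30 and 2.11 in the same order, all called (adjusted p of 0.0139 or less), so that AC220, Lys05 and vehicle lay close together. These comparisons called 28.9%, 35.1%, 4.54% and 4.84% of 17144 genes in the same order. The vehicle call was lost with the fit restricted to the groups compared (1.97, adjusted p = 0.124) or without LSK vehicle library 1, 2 or 4 or GMP vehicle library 3 (adjusted p up to 0.0831), and the Lys05 call without LSK Lys05 library 2 or any 1 of the GMP Lys05 libraries (adjusted p up to 0.0627). Without the 3 GMP libraries that stand apart both calls held, at 1.56 (adjusted p = 0.00507) for vehicle and 2.13 (adjusted p = 0.000383) for Lys05.

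Kit was not called between LSK cells and GMP under any treatment, at 0.96 ± 0.39 under the combination (adjusted p = 0.0619), 0.46 ± 0.39 under AC220, -0.30 ± 0.39 under Lys05 and 0.02 ± 0.39 under vehicle. KIT protein is part of the usual gates of both cell types, which leave out cells low in it. The combination value was called by DESeq2 (0.92, adjusted p = 0.0381) and when GMP combination library 1 or 2 or GMP AC220 library 1 was left out (adjusted p down to 0.0153). The AC220 value was called by limma with quality weights (0.96, adjusted p = 0.0198) and without GMP AC220 library 1 (1.02, adjusted p = 0.0422), and its sign turned with the offset (-0.42, adjusted p = 0.414).

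Csf1r was lower in LSK cells than in GMP under Lys05 and vehicle, at -2.76 ± 0.66 (adjusted p = 0.0129) and -3.07 ± 0.67 (adjusted p = 0.00553). Under AC220 the difference was -1.16 ± 0.62 (adjusted p = 0.143) and under the combination 0.03 ± 0.62 (adjusted p = 0.976). The AC220 value was called with the fit restricted to the groups compared (-1.36, adjusted p = 0.0410) and with scaling from genes of 2000 to 6000 bases (-1.66, adjusted p = 0.0398). With the offset it was -2.58 (adjusted p = 0.00164) and the combination value -1.18 (adjusted p = 0.122). The vehicle call was lost with the fit restricted to the groups compared (-3.04, adjusted p = 0.0705), and the Lys05 call without LSK Lys05 library 3 (-2.43, adjusted p = 0.0574).

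**Figure D4:**
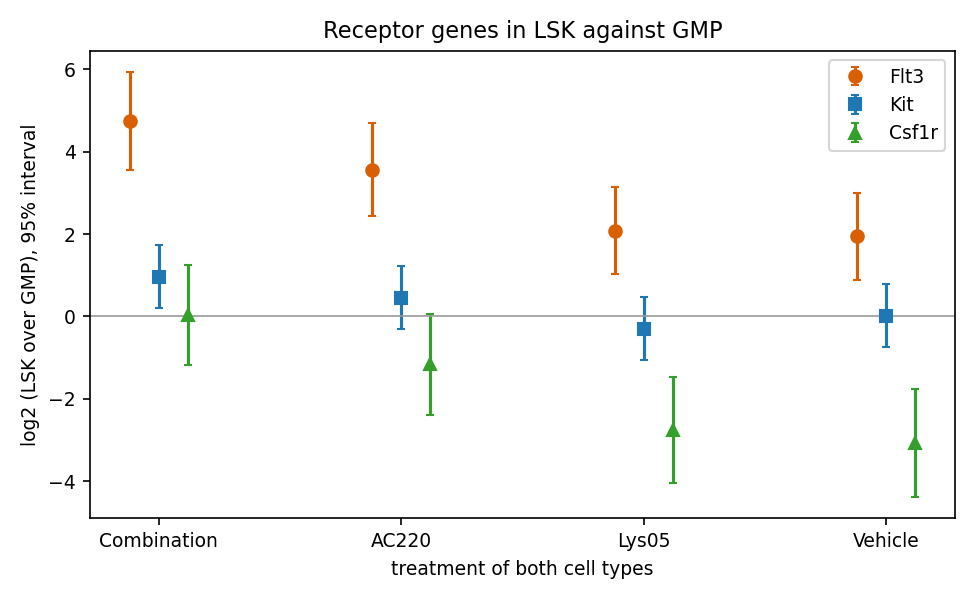
Log2 difference between LSK cells and GMP (y axis, LSK over GMP) for each receptor gene under the combination, AC220, Lys05 and vehicle (x axis); points are edgeR estimates of the fit of all 32 libraries and bars are 95% intervals (1.96 standard errors). Flt3 lies above 0 throughout, and Csf1r lies below 0 under Lys05 and vehicle and spans 0 under AC220 and the combination. Kit lies nearest to 0 except under the combination, where Csf1r does. The Kit intervals span 0 except under the combination (0.20 to 1.73), where Kit was not called (adjusted p = 0.0619 by edgeR).

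The effect of the combination differed between the cell types for Flt3 and Csf1r. The effect in LSK cells less that in GMP was 2.80 ± 0.75 for Flt3 (adjusted p = 0.0120) and 3.10 ± 0.89 for Csf1r (adjusted p = 0.0201), and 0.94 ± 0.55 for Kit (adjusted p = 0.270), in a contrast that called 12.7% of genes. With the offset both calls were lost, at 1.58 for Flt3 (adjusted p = 0.157) and 1.5 for Csf1r (adjusted p = 0.247), as they were with the fit restricted to the groups compared (2.77 and 3.07, adjusted p = 0.0789 and 0.0748). For AC220 the difference was 1.62 ± 0.74 for Flt3 (adjusted p = 0.135), 1.90 ± 0.88 for Csf1r (adjusted p = 0.141) and 0.43 ± 0.55 for Kit (adjusted p = 0.637), with 16.8% of genes called. With the offset these were 0.29 for Flt3, 0.11 for Csf1r and -0.48 for Kit, none called. Without GMP vehicle library 1 the differences for AC220 were called for Flt3 (2.01, adjusted p = 0.0144) and Csf1r (2.31, adjusted p = 0.0233), as they were without the 3 GMP libraries that stand apart (2.01 and 2.31, adjusted p = 0.00163 and 0.0200). Limma with quality weights called all 3, at 2.18 for Flt3 (adjusted p = 0.000959), 2.2 for Csf1r (adjusted p = 0.0330) and 1.11 for Kit (adjusted p = 0.04996, just under the threshold). For Lys05 the differences were 0.14 for Flt3, -0.32 for Kit and 0.31 for Csf1r, all with an adjusted p of 1.0, and 0% of genes were called by edgeR (500 at an unadjusted p under 0.05), 211 genes by DESeq2 and 5 by limma with quality weights.

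The ligand genes were low in LSK libraries. Kitl, the gene of stem cell factor, and Il34 stayed below 0.2 CPM in every LSK library. Csf1 averaged 1.98 ± 0.20 CPM under AC220 and 2.60 ± 1.51 under the combination, against 0.53 ± 0.27 under vehicle (SD, n = 4 each), at log2 fold changes of 1.89 (adjusted p = 0.0310) and 2.28 (adjusted p = 0.0129). With the offset neither was called (0.66 and 1.27, adjusted p = 0.473 and 0.155). Flt3l, the gene of the FLT3 ligand, averaged 1.31 ± 0.08 CPM under AC220 and 1.34 ± 0.47 under the combination, against 3.06 ± 1.61 under vehicle, and fell by 1.23 (log2 fold change -1.23, adjusted p = 0.0316) and 1.2 (-1.2, adjusted p = 0.0377); both calls held with the offset (-1.76 and -1.75). So 1 of the 2 ligand genes tested rose and 1 fell in both comparisons. None of these values shows the ligand supplied by other marrow cells, which were not analysed here.

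Of the related receptors, Pdgfrb, the other class III gene seen in LSK cells, averaged 37.9 ± 10.8 CPM under AC220 and 32.95 ± 7.26 under the combination, against 10.6 ± 5.21 under vehicle. It rose by 1.84 (adjusted p = 0.00322) and 1.64 (adjusted p = 0.00744), neither called with the offset (0.59 and 0.60, adjusted p = 0.298 and 0.300). Pdgfra stayed below 0.02 CPM in LSK libraries. The VEGF receptor genes Kdr, Flt1 and Flt4, members of the neighbouring class, were tested at 0.28 to 1.55 CPM on average under AC220 or vehicle, and none was called.

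Genes that relay the receptors' signals rose more often than they fell in LSK cells. Of 21 tested, 14 rose and 1 fell under AC220, and as many under the combination, with median log2 fold changes of 1.37 and 1.03, against 0.09 and 0.06 over all genes, of which 29.4% and 28.3% were called higher. Stat5a and Stat3, transcription factors that the receptors activate, rose by 2.33 ± 0.12 and 2.13 ± 0.18 under AC220 (adjusted p = 9.69e-11 and 4.20e-08), and Shc1, an adaptor, by 3.10 ± 0.20 (adjusted p = 1.86e-09). Pik3cd, a catalytic subunit of phosphoinositide 3-kinase, rose by 1.69 ± 0.14. With the offset 7 of the 21 rose and 2 fell under AC220, against 23.5% and 21.4% of all genes, so the count of those higher lay nearer the share over all genes; Stat5a (0.92), Stat3 (1.05) and Shc1 (1.95) kept their calls and Pik3cd (0.28, adjusted p = 0.106) did not. Counts of these messenger RNAs do not measure signalling.

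Of 13 genes tested that restrain the receptors, 8 rose and 1 fell under AC220 and under the combination, where 29.4% and 28.3% of all genes were called higher. With the offset 4 rose and 2 fell in each, near the shares over all genes (23.5% higher and 21.4% lower under AC220, 22.8% and 21.2% under the combination). Ptpn6, the phosphatase SHP-1, rose by 1.35 ± 0.14 under AC220, Sh2b3, the adaptor LNK, by 1.79 ± 0.20, Socs6 by 1.81 ± 0.22 and Inpp5d, the lipid phosphatase SHIP-1, by 1.55 ± 0.21. With the offset Ptpn6 (0.64) and Socs6 (2.07) kept their calls, whereas Sh2b3 (0.39, adjusted p = 0.0900) and Inpp5d (0.38, adjusted p = 0.0667) did not. Under the combination Sla2, an adaptor known for restraining receptors of lymphocytes, fell by 1.40 (log2 fold change -1.40, adjusted p = 0.000405).

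Of 19 transcription factor genes tested that are known to act on hematopoietic receptor genes or in the same cells, 8 rose and 1 fell under AC220, and 9 rose and 1 fell under the combination. Of all genes, 29.4% and 28.3% were called higher in these comparisons, and 25.5% and 23.6% lower. With the offset the counts were 3 and 2, and 5 and 3. These lay below the shares over all genes for AC220 (23.5% higher, 21.4% lower) and near them for the combination (22.8% and 21.2%). Fli1, an ETS factor, rose by 1.16 ± 0.17 under AC220 and Meis1, a homeobox partner of HOXA9, by 0.997 ± 0.18, and both kept their calls with the offset (0.89 and 1.14). Ldb1, a scaffold of the TAL1 complex, at 1.23 and Cebpa, a myeloid factor, at 1.29 did not (-0.19 and 0.08 with the offset). Of 8 genes for folding, palmitoylation and shedding of the receptors, 3 rose and 2 fell under AC220, about the shares over all genes: Adam17 and Adam10, membrane proteases that shed receptors, rose by 1.78 ± 0.22 and 1.16 ± 0.24, Calr, an endoplasmic reticulum chaperone, by 0.91 ± 0.16, and Hsp90aa1, a cytosolic chaperone of kinases, fell by 0.64 (-0.64 ± 0.14). All 4 kept their calls with the offset. Under the combination 4 of the 8 rose and 1 fell, where 28.3% of all genes were called higher and 23.6% lower. With the offset 3 rose and 3 fell under the combination.

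Markers of macrophages and dendritic cells were called in the same LSK comparisons as the members, more of them under the combination than under AC220. The summed level of 12 macrophage genes was 37.0 to 60.1 CPM in the combination libraries and 19.0 to 33.9 CPM in the AC220 libraries, against 4.11 to 20.5 CPM in the vehicle libraries, where Cd5l, Marco and Mertk were at 0. In the Lys05 libraries, where no member was called, this sum was 12.7 to 29.7 CPM and overlapped that of AC220. Under the combination 7 of 11 tested rose and none fell, where 28.3% of all genes were called higher. Under AC220 3 of 11 rose, about the 29.4% of all genes called higher. With the offset 8 rose under the combination and 3 under AC220. Csf1r is itself expressed by macrophages. Combination library 1 had the highest macrophage sum of its group at 60.1 CPM and the lowest Csf1r at 19.5 CPM. The summed level of 11 dendritic cell genes, most of it MHC class II and Cd74, ran the other way, at 585 to 6020 CPM under the combination and 4710 to 21577 CPM under AC220, against 19699 to 70710 CPM under vehicle. Under Lys05 this sum was 10539 to 65594 CPM, overlapping both AC220 and vehicle. Under the combination 8 of 11 fell and none rose, where 23.6% of all genes were called lower. Under AC220 4 fell, where 25.5% of all genes were called lower, and 1, Siglech, rose (2.48, adjusted p = 0.0223). With the offset 7 fell under the combination, and 1 fell and 1 rose under AC220. In GMP the macrophage sum was 1433 CPM in combination library 3 and 92.9 to 240 CPM in the other combination libraries, against 12.1 to 31.9 CPM in the vehicle libraries. It ran from 22.8 to 154 CPM in the AC220 libraries and from 23.2 to 189 CPM in the Lys05 libraries, with the highest in Lys05 library 1. The part of these cells in the members' values was not tested.

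**Figure D5:**
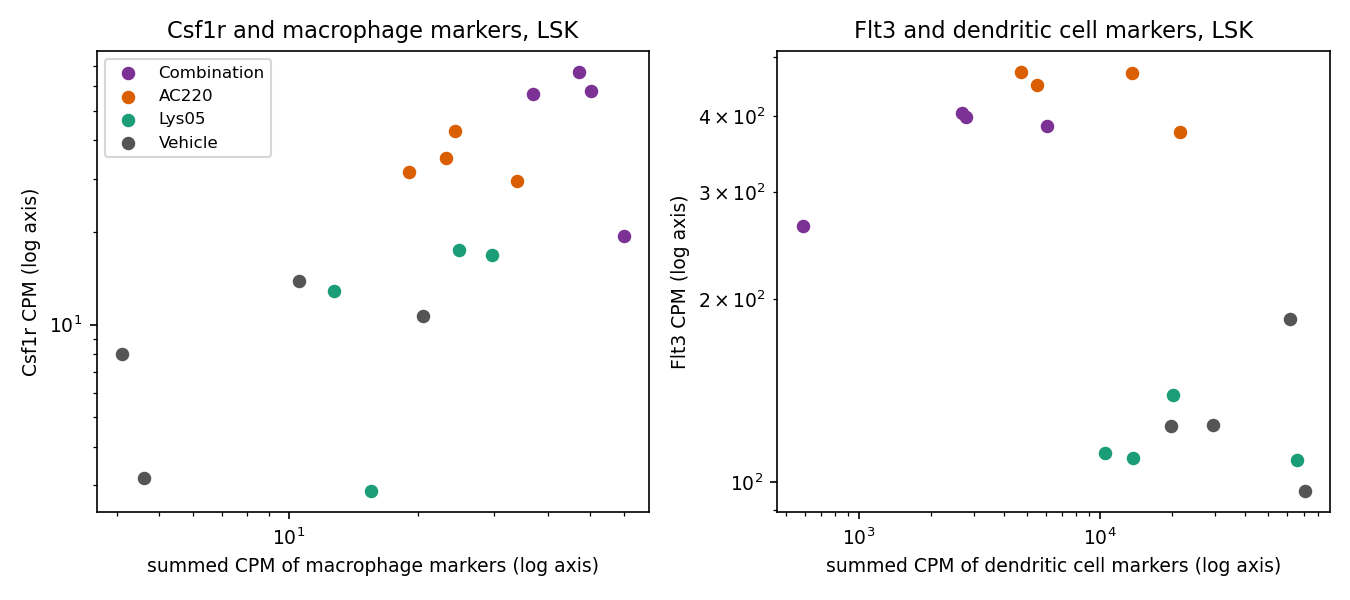
Csf1r against the summed level of 12 macrophage markers (left) and Flt3 against the summed level of 11 dendritic cell markers (right) in the 16 LSK libraries, all in CPM on log axes; each point is a library, coloured by treatment. The combination libraries have the highest macrophage sums, from 37.0 to 60.1 CPM. The vehicle libraries, from 19699 CPM upward, have high dendritic cell sums at low Flt3. The Lys05 libraries have Flt3 within the vehicle range at sums from 10539 CPM, and AC220 library 1 has a sum of 21577 CPM at a Flt3 of 377 CPM.

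Of 8232 genes with a mean log2 CPM of at least 2, those most like each member over the 32 libraries were named by Pearson's r of log2 CPM, as a description of libraries that share cell type, treatment and length composition. For Flt3 they were Coro2a (0.92), Aldh18a1 (0.91), Uba7 (0.91), Pitrm1 (0.89) and Lgals9 (0.87). For Kit they were Scaf8 (0.91), Fbxl14 (0.89), Ppm1g (0.89), Lcp1 (0.89) and Abcc1 (0.86). For Csf1r they were Tmem229b (0.85), Palm (0.83), Itm2c (0.81), Gpi1 (0.80) and Aldh4a1 (0.79). Within the 16 LSK libraries r was 0.96 for Coro2a with Flt3, 0.98 for Scaf8 with Kit and 0.89 for Tmem229b with Csf1r, and within the 16 GMP libraries 0.56, 0.80 and 0.72.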

How the data were processed

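RNA sequencing of LSK cells and GMP was deposited as 1 table of raw counts per Ensembl gene, which the authors made for 32 libraries. Per the labels' protocols, RNA was amplified with a SMARTer v4 kit and made into libraries with Nextera XT. Named in the submitters' processing notes are GRCm38, STAR 2.7.3a, Trim Galore 0.6.5, DESeq2 1.26.0, HTSeq 0.11.2 and bcl2fastq 2.20, with no roles; the annotation release and strand setting are not given in the sources used here. The deposited counts have 5 summary lines, 15.2% to 30.9% of a library, which were left out. GENCODE M21 named 55230 of 56246 rows.

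Counts were tested in edgeR 4.0.16 (R 4.3.3; filterByExpr, TMM, robust quasi-likelihood), two-sided, with fits of 16 LSK libraries (15730 genes), 16 GMP libraries (14572) and all 32 (17144). Benjamini-Hochberg adjustment ran over all genes of a comparison, with calls at an adjusted p under 0.05. Unless said otherwise, CPM is that of the cell type's own fit, and errors after a fold change are standard errors. Intervals are 1.96 standard errors to each side. They are narrower than the quasi-likelihood test implies, so an interval can leave out 0 at an unadjusted p above 0.05. The code was tested on simulated data. Alternatives were DESeq2 1.42.0, limma 3.58.1 (voom with quality weights), other scalings, no filter on low counts, a length and GC offset (natural splines with 4 inner knots per library), and leaving out libraries. Of each gene list, at most 4 members with the smallest p were to be named, and of the genes most like a member the 5 with the highest r; Sla2 and Siglech were named after their values were seen. The members and lists were chosen with earlier results of these data known.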

Additional observations from a re-analysis of the deposited data

Results flagged for a closer look

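Chance puts about 1 in 20 groups past Dixon's 95% limit for a sample far from the others; of 24 groups (3 genes in 8 groups of 4), 4 were past it. Flt3 in LSK combination library 1 was the lowest of its group at 263.9 CPM, and this library was also the lowest for Csf1r. Flt3 in LSK Lys05 library 2 was the highest of its group at 139.2 CPM. Flt3 in GMP vehicle library 1 was the lowest at 2.18 CPM, and this is 1 of the 3 GMP libraries that stand apart. Kit in GMP AC220 library 1 was the highest at 168.2 CPM. The effect of the combination differed between the cell types by a test of the difference itself for 2 genes, Flt3 at 2.80 and Csf1r at 3.10 (log2, LSK less GMP, by edgeR, adjusted p = 0.0120 and 0.0201). That contrast called 12.7% of genes. Both calls were lost with the length and GC offset and with the fit restricted to the groups compared.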

How the results depend on the processing

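In LSK cells Flt3 and Kit kept their direction and their call for AC220 and the combination against vehicle, the combination against Lys05 and the pooled AC220 effect in every alternative run and without any 1 library; so did Csf1r, except with the length and GC offset. No paired analysis was possible because the labels give no replicate numbers that groups share. The cause of the changes below was not tested.

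The offset gave, for Csf1r, 0.71 (AC220 against vehicle in LSK), 0.86 (combination against Lys05), 0.78 (pooled AC220), -2.58 and -1.18 (LSK against GMP under AC220 and the combination) and 1.5 (combination effect, LSK less GMP); for Flt3 1.58 in the last; for Kit -0.48 (AC220 effect, LSK less GMP), -0.42 and 0.00943 (LSK against GMP under AC220 and Lys05); and -0.0293 for the Flt3 to Kit ratio under the combination in LSK. TMM from genes of 2000 to 6000 bases gave, for LSK against GMP, Csf1r -1.66 (AC220) and -0.48 (combination) and Kit -0.0772 (AC220) and -0.0654 (vehicle), and -0.0118 for Kit in the AC220 effect, LSK less GMP. Csf1r in LSK against GMP under the combination was at -0.0495 by DESeq2, -0.0495 by RLE, -0.0447 with only the groups compared and -0.0784 without the 3 GMP libraries; DESeq2 gave 0.92 for Kit there. Only the groups compared gave Csf1r 3.07 and Flt3 2.77 (combination effect, LSK less GMP), and for LSK against GMP Csf1r -1.36 (AC220) and -3.04 (vehicle) and Flt3 1.97 (vehicle). Limma with quality weights gave, against vehicle, Csf1r -0.0958 (AC220, GMP), -0.0486 (Lys05, GMP) and -0.46 (Lys05, LSK), Flt3 -0.15 (AC220, GMP) and Kit -0.19 (Lys05, GMP); for the AC220 effect, LSK less GMP, 2.2, 2.18 and 1.11 for Csf1r, Flt3 and Kit; -0.30 for Csf1r in the Lys05 effect; for Kit 0.96 and -0.16 in LSK against GMP under AC220 and vehicle, and 0.0154 in the GMP interaction. Without the 3 GMP libraries, chosen after seeing the data, Csf1r was at -0.24 (AC220, GMP) and -0.15 (Lys05, GMP), Flt3 at -0.16 (AC220, GMP), Kit at -0.13 (Lys05, GMP) and -0.0212 (LSK against GMP, vehicle), the AC220 effect, LSK less GMP, at 2.31 for Csf1r and 2.01 for Flt3, and the Flt3 to Kit ratio for Lys05 in GMP at -0.67.

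Leaving out 1 library in turn turned a sign or moved a call in these ranges. Csf1r: AC220 in GMP -0.24 to 0.57, Lys05 in GMP -0.22 to 0.38, LSK interaction -0.35 to 0.31, AC220 effect between cell types 1.55 to 2.31, LSK against GMP under Lys05 -2.96 to -2.43 and under the combination -0.14 to 0.34. Flt3: AC220 in GMP -0.16 to 0.58, Lys05 in LSK -0.28 to 0.0343, LSK interaction -0.32 to 0.0124, AC220 and Lys05 effects between cell types 1.39 to 2.08 and -0.0552 to 0.52, LSK against GMP under Lys05 1.99 to 2.13 and under vehicle 1.56 to 2.14. Kit: combination against Lys05 in GMP -0.0359 to 0.65, Lys05 in GMP -0.18 to 0.25, LSK interaction -0.27 to 0.17, LSK against GMP under AC220 0.30 to 1.02, the combination 0.66 to 1.35 and vehicle -0.20 to 0.16. The Flt3 to Kit ratio against vehicle ran from -1.35 to 0.14 for AC220 in GMP, from -0.79 to 0.70 for Lys05 in GMP and from -0.11 to 0.31 for Lys05 in LSK; for the combination in GMP it ran from -2.16 to -0.67, with no change of sign.

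Between the combination and AC220 in LSK, 56 genes were called, against 355 by DESeq2 and 2152 by limma with quality weights, 1 with the offset, 2 with TMM from genes of 2000 to 6000 bases, 4 by RLE and 5 without a filter. In GMP, the coefficient of variation between libraries of a group (1.06) limits the comparisons, with 69 counts or more behind each Flt3 value.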

Other observations

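Calls among other marker lists in LSK cells are given against the shares over all genes, of which 29.4% were higher and 25.5% lower under AC220 and 28.3% and 23.6% under the combination. Under AC220 3 of 6 tested lymphoid priming genes rose and none fell, and their sum was 280 to 1052 CPM, against 225 to 334 CPM under vehicle; under the combination it was 179 to 435 CPM, with 1 rising and 1 falling. Of 8 stem cell genes, 2 rose and none fell under AC220 and under the combination, a share of higher calls no larger than that over all genes. Of 10 monocyte genes, 2 rose and 3 fell under AC220, and 3 rose and 5 fell under the combination. Of 5 primary granule genes tested, 1 rose and 4 fell under AC220, with none called with the offset. Under the combination 1 rose and 1 fell, whereas with the offset 4 rose and none fell, where 22.8% of all genes were called higher. Of 6 basophil and mast cell genes tested, 3 fell under AC220 and 2 under the combination, and none rose. With the offset none of them fell in either comparison, and 1 rose under the combination. Of 7 erythroid genes, 1 rose and 1 fell under AC220, and 1 rose under the combination. Cd34, a gene of the usual GMP gate, averaged 677 ± 53.7 CPM in LSK cells under the combination, 627 ± 117 under AC220 and 321 ± 38.6 under Lys05, against 231 ± 13.1 under vehicle (SD, n = 4 each). The comparisons with vehicle called 51.8%, 54.9% and 0% of 15730 genes in the same order, so Cd34 was not called for Lys05.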
